A study of Mus musculus with 9 samples.

Results

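Luminal differentiated (LD) cells of the mouse mammary gland were compared with the organoids they gave rise to after YAP reprogramming, across 18194 genes measured on Affymetrix arrays. The comparison holds 6 of the 9 arrays of the series: 3 arrays of LD cells, here called Lum, and 3 arrays of organoids from yMaSCs, here called yOrg, each lettered A, B and C. Lum cells were sorted from the glands of adult virgin C57BL/6J mice as EpCAM-high, CD49f-low and CD61-negative cells after staining that included a cocktail against lineage markers of other cells, and their RNA was taken without culture. The yOrg arrays hold RNA of organoids grown from such LD cells that carried a doxycycline-inducible lentiviral YAP transgene and its rtTA activator, were exposed to doxycycline, and were then kept and passaged in undiluted Matrigel without it. Their medium held EGF, bFGF, heparin, noggin (a BMP antagonist) and R-spondin 1 (an enhancer of Wnt signaling). The other 3 arrays, organoids from native mammary stem cells (Org), grew in the same medium without a YAP transgene. They were not tested against either group, but they entered the estimate of the spread, the choice of probe sets and the background bound. Fresh and cultured state lie fully within the groups, so reprogramming and culture cannot be told apart here. An array reads the whole sample, so fewer cells of a type and less RNA per cell cannot be told apart either.

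The mammary epithelium is a bilayer. Luminal cells line the lumen, express keratins 8, 18 and 19, and include estrogen receptor-positive hormone-sensing cells and milk-making alveolar cells. Basal cells rest on the basement membrane, express keratins 5 and 14 and p63, and contract through smooth muscle actin. YAP is a transcriptional coactivator held in check by the Hippo kinases. Together with its paralog TAZ it acts on DNA mainly through TEAD factors.

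Values below are log2 RMA levels, given in the order of arrays A, B and C, and a difference is the mean of yOrg minus the mean of Lum on this log2 scale, with its standard error (SE). A gene was called higher or lower at an adjusted p under 0.05 in a limma fit over all genes. Levels of different genes were not compared with each other. A level was taken as background at or under 4.49, the 95th percentile of 74 olfactory, vomeronasal and taste receptor genes on all arrays. Where a group lay there, the difference is a lower limit of the change.

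Between Lum and yOrg 6531 genes differed, 35.9% of those tested. Of these, 3927 were higher in yOrg (21.6%) and 2604 lower (14.3%). The median difference of all genes was -0.01 and the median absolute difference 0.31. Changes of at least 4-fold were about as frequent in both directions, with 474 genes higher and 401 lower, whereas 44 genes were higher and 62 lower by at least 16-fold. The 3 yOrg arrays lay above all 3 Lum arrays in 4542 genes (25%) and below all of them in 3627 (19.9%). Most called genes were on in both states. Of the genes called lower, 368 went from above background in Lum to background in yOrg, 1970 stayed above it, and 266 were at background in both. Of the genes called higher, 336 came up from background and 3495 had already been above it. The balance of calls rests on the scaling: 60.1% of calls were higher in the deposited values, 50.4% after quantile normalization, 49.8% after cyclic loess, and 28.8% after each array was centered on a common median, which moved the median of all genes by -0.26.

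Arrays correlated at 0.978 to 0.991 within Lum, 0.982 to 0.995 within yOrg and 0.921 to 0.939 between them. An array of each group stood apart. Lum B lacked some casein transcripts and Wap, which Lum A and C held, and carried more endothelial, fibroblast and fat cell transcripts, and yOrg C differed from yOrg A and B in cell division, interferon and some detoxification genes. Without Lum B, 3701 genes were higher and 2661 lower. Without yOrg C, 3897 were higher and 2421 lower. Without Lum B the difference was 5.69 for Saa1, 6.18 for Saa2, 4.36 for Pcp4, -7.01 for Tph1, -8.49 for Glycam1, -9.62 for Csn2, -3.49 for Tnfsf11, -5.5 for Fgb, -4.47 for Il6, -3.77 for Col3a1, -2.42 for Cd36, -2.47 for Mcm5, 3.96 for Myl9 and 5.15 for Id4. Without yOrg C it was 8.46 for Gsta3, 5.54 for Saa3, 5.42 for Orm1, 3.56 for Id1, 3.67 for Id4, -5.71 for Cited1, -5.92 for Klf4, -3.40 for Gadd45a, -3.91 for H2-Ab1 and -1.57 for Dusp1. The values of these genes below hold all arrays, and each kept its direction.

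Markers in the Lum arrays went with the sort in part. Epcam, the surface adhesion molecule used for the gate, read 13.68, 13.70 and 13.60. The luminal keratin gene Krt8 read 14.26, 14.13 and 14.17. Esr1, the estrogen receptor of hormone-sensing cells, read 11.03, 11.24 and 10.99, whereas Trp63, which encodes the basal factor p63, was at background in all 3 arrays (3.94, 3.60 and 3.98). Some markers of cells that the gate was meant to leave out were above background too. Itgb3, which encodes the CD61 that the gate excluded, had a Lum mean of 5.52, and the progenitor gene Kit 9.03. Of 20 measured basal keratin and contraction genes, 16 were above background in Lum, as were 68.4% of all genes.

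The largest losses included milk proteins, early response factors, antigen presentation and leukocyte genes, and secreted cytokines. Glycam1, which encodes a secreted mucin-like milk protein, read 12.67, 9.85 and 11.97 in Lum and 4.69, 3.46 and 3.33 in yOrg. The groups were far apart, with a difference of -7.67 (SE 0.70, adjusted p = 7.0e-05). Fosb, an AP-1 transcription factor subunit, read 11.41, 11.25 and 11.27 in Lum and 3.53, 3.98 and 3.62 in yOrg (-7.60, SE 0.20). H2-Aa, the alpha chain of an MHC class II molecule, read 10.50, 11.21 and 9.86 in Lum and 2.88, 3.42 and 3.50 in yOrg (-7.26, SE 0.31). In each of these genes the yOrg mean was at background. Csf3, the granulocyte colony-stimulating factor gene, fell by 6.58 and the cytokine gene Il6 by 5.95. Btn1a1, which encodes the butyrophilin of milk fat globules, fell by 5.55, Plaur, the urokinase receptor gene, by 5.52, and Epgn, a ligand of the EGF receptor, by 5.46. Tph1, the enzyme of serotonin synthesis, fell by 5.63, from 10.70, 6.25 and 10.08 to 3.09, 3.39 and 3.65. The remaining genes among the 15 largest decreases were Fgb, Nipal1, Bex1, Ptprc, Plac8 and Fosl1.

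The largest gains included acute phase proteins, Notch genes and the basal factor gene Trp63. Saa1 encodes serum amyloid A, an acute phase protein. It read 13.99, 14.29 and 13.78 in yOrg against 8.73, 3.42 and 7.94 in Lum, a difference of 7.32 (SE 1.14, adjusted p = 0.0012) in which Lum B was far below Lum A and C. Moxd1, a monooxygenase-like gene, rose from 4.98, 4.50 and 4.05 to 11.88, 11.68 and 11.38 (7.14, SE 0.27). Gsta3, a glutathione transferase, was at background in Lum (2.79, 3.21 and 3.29) and read 11.29, 11.82 and 7.49 in yOrg (7.10, SE 1.40), with yOrg C low among the organoids yet above every Lum array. Foxi1, a forkhead factor known from acid-secreting cells, read 10.93, 11.60 and 10.53 in yOrg against 3.61, 5.40 and 4.44 in Lum (6.54, SE 0.48). Car12, a carbonic anhydrase, rose by 5.54, Chl1, a neural adhesion molecule, by 6.25, and Dll1, a Notch ligand, by 5.16. Saa2, B4galnt2, Dram1, G0s2, Hey1, Pcp4, Pla2g7 and Trp63 completed the 15 largest increases.

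**Figure D1:**
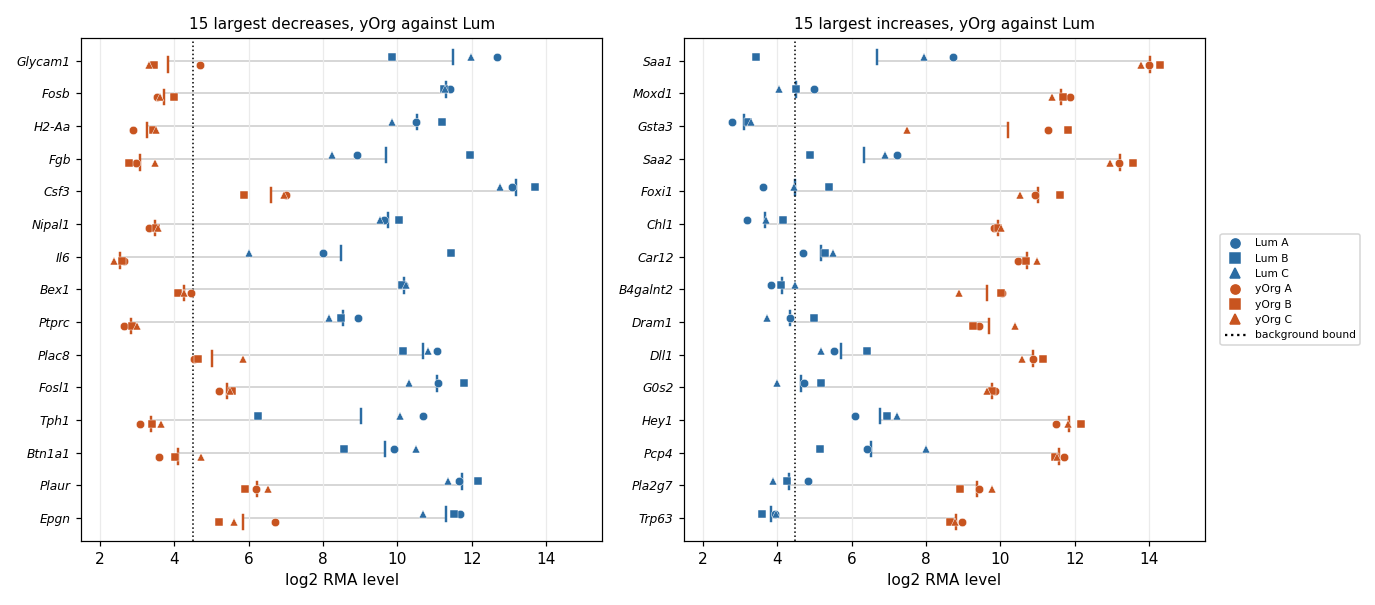
Log2 RMA levels (horizontal axis) of the 15 genes with the largest decrease (left) and the 15 with the largest increase (right) among called genes whose groups did not overlap; points are single arrays (Lum blue, yOrg orange, shape by letter), short vertical bars are group means, and the dotted line is the background bound of 4.49. Lum B lies far below the other Lum arrays for Tph1 and Saa1, and yOrg C below the other organoids for Gsta3.

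In the organoids taken whole, luminal genes fell more often than all genes did, and most of those that fell stayed above background. The paper found luminal keratins by staining in inner organoid cells and basal markers in outer cells. It reports that yMaSCs sorted out of the organoids carried basal markers and lacked luminal ones. Which organoid cells held the luminal transcripts was not tested. Over 5 lists of luminal genes (hormone-sensing, keratins and adhesion, transcription factors, progenitor, and milk and alveolar genes), 72 genes were measured, 70 of them above background in Lum. Of the 72 genes, 28 fell, 12 rose and 32 were not called, with a median difference of -0.67. Of all genes 14.3% fell and 21.6% rose. Staying above background was common: of all 2604 genes called lower, 1970 kept a yOrg mean above it. Of the 28 luminal genes that fell, 24 stayed above background in all 3 yOrg arrays. The other 4 fell to a mean level at background: Glycam1, Btn1a1, the casein gene Csn2, and Tnfsf11, the RANKL gene through which hormone-sensing cells signal to their neighbors. In Lum B both Csn2 and Tnfsf11 were already at background, and their calls were lost when any 1 array other than Lum B was left out.

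Structural luminal genes fell to different extents. Of 17 measured keratin and adhesion genes 11 fell and 1 rose (median -0.90). Epcam read 13.01, 12.98 and 13.02 in yOrg, below every Lum array, and fell by 0.66 (SE 0.08), which leaves 63.4% of the Lum level on the linear scale. Krt8 read 13.27, 13.41 and 13.18 in yOrg (-0.90, SE 0.12), or 53.6% of Lum. Krt18, its partner keratin, kept 62.3%. Cdh1, which encodes the adherens junction protein E-cadherin, kept 51.9%. Krt19 fell further, from 13.79, 13.49 and 13.54 to 11.46, 11.67 and 12.27 (28.6% left), and Krt7 kept 35.4%. Among tight junction genes, Cldn4 kept 9.65%, Ocln, which encodes occludin, 20.6% and Cldn7 45.8%, whereas Cldn3 was not called (-0.51, 95% interval -1.31 to 0.29). Cd24a, a surface marker of mammary epithelium, was not called either (-0.15, -0.47 to 0.18). Marveld3, another tight junction gene, rose by 0.88.

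Of 9 measured hormone-sensing genes 6 fell and 0 rose (median -1.58), where 14.3% of all genes fell and 21.6% rose. Greb1 went the other way, from a mean at background in Lum to a mean above it in yOrg, but was not called. Cited1, a transcriptional cofactor of estrogen receptor-positive cells, read 11.76, 11.00 and 11.42 in Lum and 5.64, 5.73 and 7.48 in yOrg (-5.11, SE 0.71), leaving 2.90% of the Lum level. Wnt4, the progesterone-induced Wnt ligand, kept 9.85% (-3.34, SE 0.39). Esr1 read 8.63, 8.62 and 9.01 in yOrg (-2.33, SE 0.28), or 19.8%. Pgr, the progesterone receptor gene, read 8.90, 8.73 and 9.83 against 10.74, 10.87 and 10.59 in Lum (-1.58, SE 0.49, adjusted p = 0.033), or 33.4%, and its call was lost without any 1 of Lum A, B or C, yOrg A or yOrg B. The pioneer factor gene Foxa1 was lower in every yOrg array but not called (-1.12, -2.23 to -0.01), although it was called without Org B or Org C. With either Lum A, Lum C, yOrg A or yOrg B left out, 3 of the 9 genes were called lower, and 4 without Lum B or yOrg C.

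Luminal transcription factors went both ways, with 7 of 19 higher, 5 lower and a median of -0.04. Elf5, the factor of alveolar and progenitor cells, rose from 9.01, 8.43 and 9.74 to 11.55, 12.01 and 11.81 (2.73, SE 0.31). Tfap2c rose by 1.74 and Gata3, the factor that maintains luminal differentiation, by 1.25, from 9.40, 9.11 and 9.63 to 10.69, 10.70 and 10.51. The groups of these 3 genes did not overlap. Against them, Ovol1, an epithelial zinc finger factor, fell by 3.25, Sox9 by 1.86, Spdef by 1.83 and Elf3 by 1.47. Stat5a, which carries the prolactin signal, fell by 0.72, a call lost without Lum A, Lum C, yOrg B or yOrg C. Cish, a feedback target of STAT5, fell by 2.61. Of 10 progenitor genes 3 fell and 1 rose (median -0.37), with 40% called against 35.9% of all genes. Lif fell by 4.21 and Aldh1a3 by 2.35, whereas the receptor genes Kit (0.56, -0.80 to 1.91) and Cd14 (0.17, -0.29 to 0.63) were not called.

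**Figure D2:**
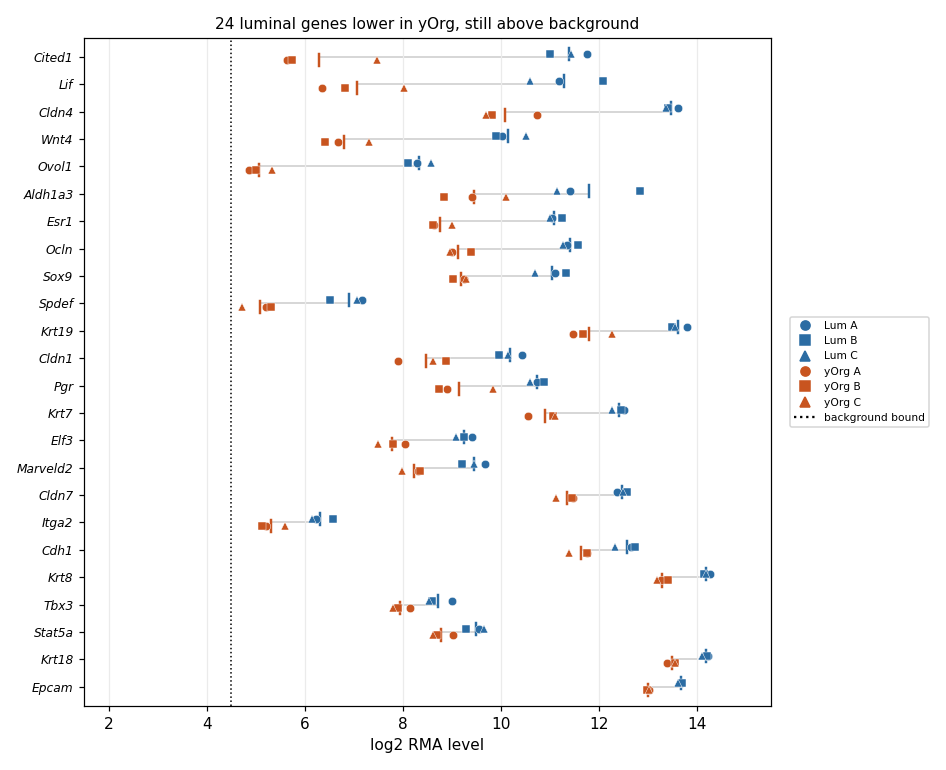
Log2 RMA levels (horizontal axis) of the 24 luminal genes that were called lower in yOrg and stayed above the background bound of 4.49 (dotted line) in all 3 yOrg arrays, ordered by size of change; points are single arrays and short vertical bars are group means. In every gene shown the 3 yOrg arrays lie below the 3 Lum arrays, from Cited1 with 2.90% of the Lum level to Epcam with 63.4%.

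Milk genes differed between arrays of the same group. The casein gene Csn2 read 12.98 in Lum A and 12.97 in Lum C but 3.44 in Lum B, and 3.44, 3.35 and 3.26 in yOrg (-6.45, SE 2.17, adjusted p = 0.046). Csn1s2a read 13.93, 3.73 and 13.93 in Lum and 4.26, 4.57 and 4.76 in yOrg and was not called (-6.0, -11.27 to -0.73), although it was called without Lum B. Csn1s1 read 13.78, 5.89 and 13.66 in Lum and 8.34, 8.86 and 13.29 in yOrg, so that yOrg C lay with Lum A and C and Lum B below every organoid. Lum B thus lacked Csn2 and Csn1s2a, which the other Lum arrays held, and was low in Csn1s1. Over the 18 measured milk and alveolar genes 4 rose and 3 fell (median -0.21), with 38.9% called against 35.9% of all genes. Without Lum B 4 rose and 7 fell. Csn3, which encodes kappa-casein, rose from 13.60, 13.70 and 13.80 to 14.59, 14.60 and 14.66 (0.92, SE 0.09), with Lum B beside the other Lum arrays. This probe set lies near the top of the scale, and a second Csn3 probe set rose by 6.24, from a mean of 4.36, so the direction is shared and the size is not settled. Lcn2, an iron-binding defense protein, rose by 0.97 and Folr1, a folate receptor, by 1.79. Mfge8, the milk fat globule protein gene, was not called (0.11, -0.19 to 0.41).

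Of 20 measured basal keratin and contraction genes 8 rose, 1 fell and 11 were not called (median 0.97), and 16 were already above background in Lum. Of all genes 21.6% rose, 14.3% fell and 68.4% were above background in Lum. The factor gene Trp63 rose from background to 8.96, 8.66 and 8.77, a difference of 4.96 (SE 0.21, adjusted p = 2.9e-06). Snai2, a zinc finger factor of basal cells, rose from 4.12, 4.15 and 3.70 to 8.03, 7.46 and 8.37 (3.96, SE 0.46). Oxtr, the oxytocin receptor by which myoepithelial cells are made to contract, rose from 4.04, 4.04 and 5.10 to 8.26, 8.67 and 9.65 (4.47, SE 0.48). Among the contractile genes, Mylk, the myosin light chain kinase gene, read 4.06, 6.01 and 5.06 in Lum and 8.61, 8.84 and 8.59 in yOrg (3.64, SE 0.41). Myl9, a myosin light chain, rose by 3.28, a call lost without Lum C. Acta2, smooth muscle actin, read 7.33, 8.82 and 7.33 in Lum and 10.32, 10.32 and 11.45 in yOrg (2.87, SE 0.65). The basal keratin genes moved less: Krt5 rose by 2.56 and Krt14 by 1.64, from 8.04, 7.27 and 7.42 to 9.36, 8.49 and 9.80, and the call of Krt14 was lost without any 1 of Lum A, B or C, yOrg A, yOrg C or Org B. The Krt14 call was also lost after quantile normalization or cyclic loess, and with a trended and robust prior or array weights. Myh11, the smooth muscle myosin gene, was higher in all yOrg arrays but not called (1.01, -0.27 to 2.29), although it was called without Org C. Without yOrg C, 7 genes of the list rose.

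Of 18 basal transcription factor genes 6 rose and 3 fell, and their median of -0.08 turned to 0.00 after cyclic loess. Without yOrg B 1 of them was called lower. Beside Trp63 and Snai2, Id4 rose by 4.51, Bcl11b by 2.28 and Sox10 by 2.20. Sox10 had been well above background in the LD cells (9.14, 8.84 and 9.45). Of 16 genes tied to mammary stem cells 5 rose and 2 fell (median 0.43), with 43.8% called against 35.9% of all genes. Lgr4 and Lgr5, receptors for R-spondins, rose by 2.03 and 1.48, and Fzd7, a Wnt receptor, rose from 7.52, 7.58 and 7.84 to 10.81, 10.63 and 10.97 (3.16, SE 0.14). The call of Lgr5 was lost without Lum C or yOrg A. Itga6, which encodes the CD49f of the sort, was not called (-0.20, -0.70 to 0.31). Procr, a surface marker of a stem cell population, read 7.02, 10.21 and 5.41 in Lum and 4.67, 4.31 and 5.32 in yOrg and was not called, although it was called without Lum B or Lum C. At the basement membrane, Col17a1 and Lamb3, parts of the hemidesmosome and its laminin, rose by 3.37 and 2.50, whereas Plec and Lama5 fell by 1.67 and 1.61. Of 24 such genes 2 rose, 4 fell and 18 were not called (median 0.01, which turned negative with each other scaling), and without Lum B 4 were called higher. Of 21 fibrillar collagen and matrix genes 1 rose and 3 fell (median -0.04). Calls made up 25% of the basement membrane list and 19% of the collagen list, against 35.9% of all genes.

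The probe set of Yap1 with the highest mean read 10.21, 9.69 and 10 in Lum and 10.71, 10.67 and 10.46 in yOrg, a difference of 0.65 (SE 0.14). Another Yap1 probe set went the opposite way (-0.70, adjusted p = 0.011 over all probe sets), so no direction is given for the gene, and the mean of both was -0.03. Whether either detects the transgene is not stated in the sources used here. Wwtr1, which encodes TAZ, fell by 0.96, from 11.39, 11.03 and 11.29 to 10.30, 10.32 and 10.21. The paper reports that exogenous YAP switched on the endogenous YAP and TAZ proteins, which persisted in organoids. RNA and protein are unlike measures. Tead1 fell by 0.63, with overlapping arrays and a call lost without Lum A, Lum B, yOrg A or yOrg B. Of 18 Hippo and TEAD genes 5 were called higher and 2 lower (median 0.22, which turned to -0.03 on a common median). The called share was 38.9%, against 35.9% of all genes. Without Lum A, yOrg A or yOrg B 1 was called lower.

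Of 24 measured YAP/TAZ target genes 10 fell, 3 rose and 11 were not called, with a median of -0.48. Ccn1, which encodes the matricellular protein CYR61, read 12.45, 12.41 and 12.19 in Lum and 8.71, 9.17 and 9.52 in yOrg (-3.22, SE 0.46). Gadd45a fell by 2.80, F3, the tissue factor gene, by 2.49 and Ccdc80 by 2.08. Ccn2, which encodes CTGF, was above Lum in all 3 yOrg arrays (11.58, 11.68 and 11.08 against 10.92, 9.89 and 10.12) and narrowly missed the threshold (1.14, SE 0.39, 0.25 to 2.02, adjusted p = 0.050). It was called higher when Lum A, yOrg C, Org B or Org C was left out. Axl (1.38, 0.07 to 2.69) was not called, although it was called without yOrg B or Org C. Ankrd1 (0.65, -1.46 to 2.76) was not called. Without Lum B, 1 gene of the list was called higher. The paper found Ctgf and Axl far lower in LD cells than in the stem cell-enriched fraction, which is another comparison. Sorting, culture and reprogramming cannot be told apart for the genes of this list either.

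Promoters of 14453 of the genes were found in RefSeq (build GRCm38.p6), each from 250 bases before to 50 after a start, the first listed for each gene. Each was searched on both strands for the TEAD motif CATTCC. It was present in 13.0% of all of these promoters, in 13.3% of 1574 genes called higher by at least 2-fold, and in 12.4% of 888 called lower by at least 2-fold. Within the lists it stood in 7 of 14 basal keratin and contraction genes with a promoter and in 8 of 17 YAP/TAZ targets, and the holders of both lists moved both ways. Ccn1 fell, whereas Acta2, Mylk and Krt14 rose. Their 250 bases before the start are shown, 5′ to 3′ on the coding strand, to set this shared motif beside the opposite changes, with the motif or its reverse complement in capitals. Ccn1 lies at chr3:145649986-145650235, strand -, with the motif starting 103 bases before the start. Acta2 lies at chr19:34255374-34255623, strand - (146 bases before), Mylk at chr16:34784700-34784949, strand + (158 bases before) and Krt14 at chr11:100206031-100206280, strand - (66 bases before).
Ccn1: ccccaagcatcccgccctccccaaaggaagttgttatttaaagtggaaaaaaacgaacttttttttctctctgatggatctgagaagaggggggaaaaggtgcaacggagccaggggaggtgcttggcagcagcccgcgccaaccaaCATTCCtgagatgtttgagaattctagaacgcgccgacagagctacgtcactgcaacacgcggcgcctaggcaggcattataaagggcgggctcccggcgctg
Acta2: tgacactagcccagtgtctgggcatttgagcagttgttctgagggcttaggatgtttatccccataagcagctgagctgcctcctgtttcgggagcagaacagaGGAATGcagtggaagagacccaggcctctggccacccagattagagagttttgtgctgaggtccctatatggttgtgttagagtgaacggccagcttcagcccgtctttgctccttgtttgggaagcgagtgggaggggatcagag
Mylk: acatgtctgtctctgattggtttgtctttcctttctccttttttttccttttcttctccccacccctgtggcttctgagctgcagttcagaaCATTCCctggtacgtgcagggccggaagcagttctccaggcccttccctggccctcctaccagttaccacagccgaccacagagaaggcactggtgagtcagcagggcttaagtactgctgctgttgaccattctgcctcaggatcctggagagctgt
Krt14: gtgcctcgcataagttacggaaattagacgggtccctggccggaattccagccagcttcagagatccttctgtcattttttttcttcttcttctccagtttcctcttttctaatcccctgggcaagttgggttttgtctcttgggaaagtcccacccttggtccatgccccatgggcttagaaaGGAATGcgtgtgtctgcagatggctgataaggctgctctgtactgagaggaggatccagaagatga

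Other holders of the motif, named for it rather than by size of change, were Cald1 (2.35, called higher), Tpm1 (-0.75, called lower), Lmod1 and Smtn (both not called) in the contraction list, and Amotl2 and Crim1 (called lower), Ajuba and Ptpn14 (called higher), and Ankrd1, Axl and Lats2 (not called) among the YAP/TAZ targets. Of the other motifs, the AP-1 motif TGANTCA was in 6.33% of all promoters, in 4.70% of those called higher and in 8.67% of those called lower. The GATA motif AGATAA was in 8.13%, 5.72% and 8.11%, the forkhead motif TGTTTAC in 2.82%, 2.22% and 2.48%, and the E-box CACGTG in 9.02%, 10.4% and 9.35%. The CArG box, bound by SRF, was in 1.36%, 1.46% and 2.25%. The palindromic estrogen response element was in 4 of all promoters and in 0 of either called class. No motif contains another. These shares describe letters in a short window.

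**Figure D3:**
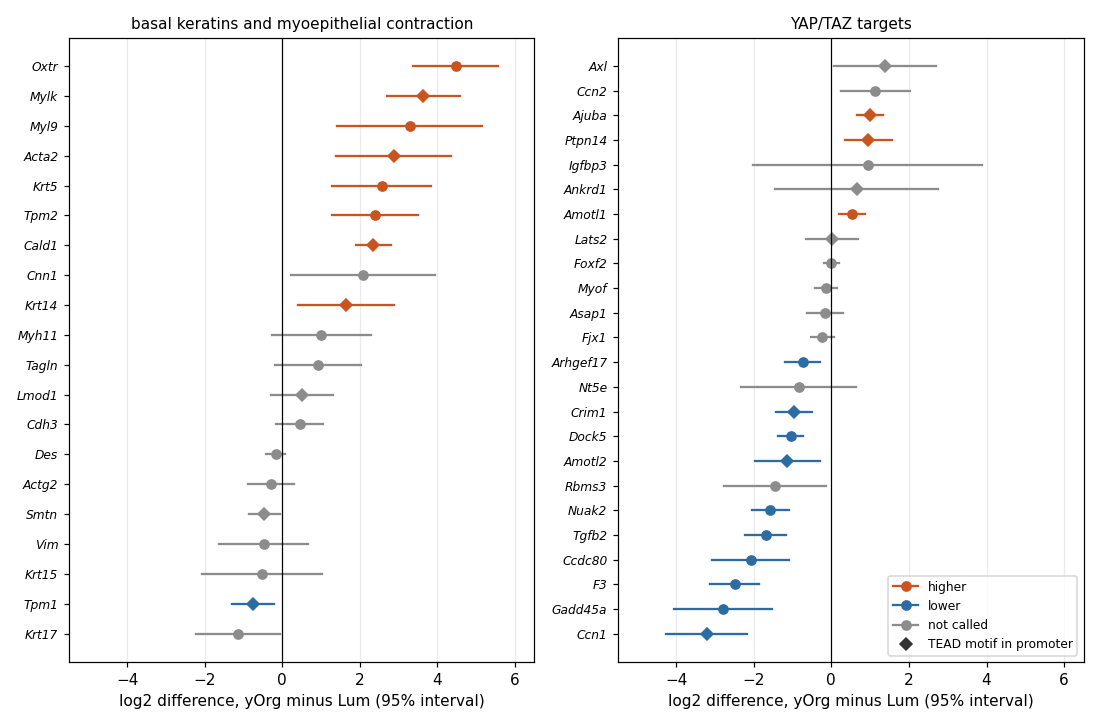
Log2 difference of yOrg from Lum with its 95% interval (horizontal axis) for the 20 measured basal keratin and contraction genes (left) and the 24 measured YAP/TAZ targets (right); colors give the call, and diamonds mark a TEAD motif in the promoter. Called basal genes lie mostly right of 0 and called YAP/TAZ targets mostly left of it, with diamonds on both sides.

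Early response genes were the list with the largest share of calls. Of 22 measured, 20 fell, 0 rose and the median was -2.43. Fos read 13.77, 13.56 and 13.60 in Lum and 11.59, 11.53 and 11.20 in yOrg (-2.20, SE 0.12). Jun read 12.40, 12.44 and 12.28 against 9.46, 9.36 and 9.40 (-2.97, SE 0.18), and Egr1 fell by 2.43. Fosl1 fell by 5.65, Klf4, a zinc finger factor, by 5.32 and the stress factor gene Atf3 by 5.11. Dusp1, a MAP kinase phosphatase, fell by 2.44, with a wide spread in yOrg (10.82, 9.83 and 7.72) and a call lost without any 1 of the Lum arrays, yOrg B, yOrg C or Org B. These genes are known to be induced within minutes to hours by tissue dissociation and sorting, and the LD cells were sorted and uncultured, so sorting and cell state cannot be told apart for them. Of 13 heat shock genes 2 were called higher and 2 lower (median -0.16), a share close to the 35.9% of all genes, and 0 were higher without Lum A, Lum C, yOrg A or yOrg B. Its inducible members Hspa1a (-0.35) and Hspa1b (0.53) were not called, although the latter was called without yOrg C.

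Among ligands of the EGF receptor family, Hbegf, Epgn, Ereg, Btc and Tgfa fell, and Egf and Nrg1 were not called. Of 22 EGF and FGF response genes 10 fell and 5 rose (median -0.49). Hbegf read 11.55, 12.41 and 11.94 in Lum and 6.76, 6.99 and 7.72 in yOrg (-4.81, SE 0.34). Fgfr2, a receptor needed for ductal growth, fell by 2.98, and Dusp5, a nuclear ERK phosphatase, fell by 3.24. Etv5, a transcription factor induced by FGF signaling, rose from 6.21, 5.54 and 6.41 to 10.12, 10.09 and 10.80 (4.28, SE 0.27), whereas its paralog Etv4 was not called (0.26). Egfr rose by 1.35, but 1 of its 7 probe sets carried the call. Of 18 hormone response effectors 5 rose and 6 fell (median -0.11). Irs1, an adapter of insulin and IGF receptors, rose from 7.74, 7.85 and 7.62 to 11.56, 11.95 and 11.77 (4.02, SE 0.12), and Rcan1 fell by 3.27. Keratins of activated epidermis fell steeply: Krt6a from 11.89, 12.10 and 11.58 to 6.46, 6.24 and 7.20 (-5.22, SE 0.28) and Krt16 by 4.69. Of 22 desmosome and cornified envelope genes 10 fell and 1 rose (median -0.43).

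Genes of the signaling pathways went both ways within each list, as did all genes, of which 21.6% were higher and 14.3% lower. Calls made up 57.1% of the Notch list, 47.4% of the Wnt list and 47.1% of the BMP and TGF-beta list, against 35.9% of all genes. In the Notch list 6 of 14 rose and 2 fell (median 0.19, -0.06 on a common median). Dll1 read 5.54, 6.41 and 5.19 in Lum and 10.88, 11.15 and 10.58 in yOrg (SE 0.33). Hey1, a Notch target, rose by 5.08 (SE 0.30), whereas Hes1, also a Notch target, fell from 10.90, 11.24 and 10.78 to 9.40, 9.47 and 9.27 (-1.59, SE 0.13). In the Wnt list 5 of 19 rose and 4 fell: the secreted antagonists Wif1 and Sfrp1 rose by 4.30 and 4.05, the ligand genes Wnt4 and Wnt11 fell by 3.34 and 3.03, and the feedback target Axin2 was not called (-0.09). In the BMP and TGF-beta list 4 of 17 rose and 4 fell. Tgfb3 rose by 3.36, and the BMP targets Id1 and Smad6 rose by 2.96 and 2.59. The organoid medium held noggin, and its effect on these genes was not tested. The medians of the Wnt list (-0.08) and of the BMP and TGF-beta list (0.10) changed sign with the scaling.

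**Figure D4:**
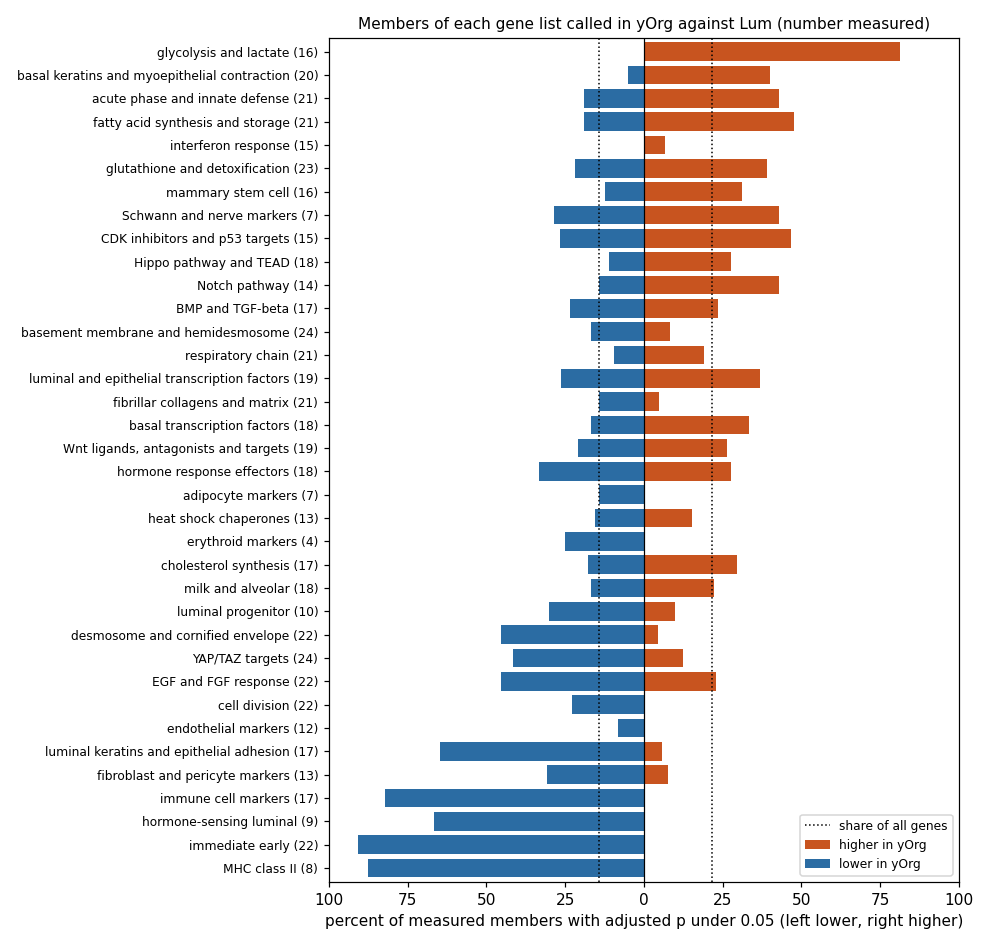
Percent of the measured members of each of 36 gene lists that were called lower (blue, left) or higher (orange, right) in yOrg, with the number measured in parentheses and the lists ordered by median log2 difference; dotted lines give the shares of all genes, 14.3% lower and 21.6% higher. MHC class II, early response, hormone-sensing and immune lists extend far to the left and glycolysis far to the right.

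Glycolysis and fatty acid genes rose more often than they fell, as did all genes in the deposited values (21.6% higher, 14.3% lower). On a common median the medians of these 2 lists were 0.95 and 0.27. Of 16 glycolysis and lactate genes 13 rose and 0 fell (median 1.20). Pfkl, the liver form of phosphofructokinase, read 7.18, 7.16 and 7.82 in Lum and 10.20, 10.78 and 10.83 in yOrg (3.22, SE 0.22). Pdk1 rose by 2.23, Aldoc by 1.79, Pkm by 1.74 and Ldha, lactate dehydrogenase A, by 1.01. The glucose transporter gene Slc2a1 (-0.65) and the hexokinase gene Hk2 (-1.57) were not called, and without yOrg C 2 genes of the list were called lower. Of 21 fatty acid genes 10 rose and 4 fell (median 0.53). The desaturase genes Scd2 and Scd1 rose by 3.99 and 2.31, Scd2 from 8.91, 8.02 and 9.29 to 12.71, 12.72 and 12.76. Srebf1, which encodes the regulator SREBP1, rose by 2.52 and Fasn, fatty acid synthase, by 1.32, whereas the fatty acid carrier Cd36 fell from 6.48, 8.08 and 3.56 to background (-3.44), a call lost without Lum A, yOrg A or yOrg B. With yOrg A or yOrg B left out, 1 of the fatty acid genes was called lower. Of 17 cholesterol synthesis genes 5 rose and 3 fell (median -0.20), with 47.1% called against 35.9% of all genes. Dhcr7, a reductase of the last steps, rose by 1.08 whereas Srebf2, which encodes the regulator SREBP2, fell by 1.24. Without Lum B, yOrg A or yOrg B 1 of the cholesterol synthesis genes was called lower. Of 21 respiratory chain genes 4 rose and 2 fell (median -0.02), with 28.6% called.

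Of 23 glutathione and detoxification genes 9 rose and 5 fell (median 0.49), and without yOrg C 12 rose. Nqo1, a quinone reductase, rose from 5.94, 8.23 and 7.11 to 10.25, 10.42 and 10.25 (3.21, SE 0.46), and Gstm1 and Gstt1 rose by 2.97 and 2.78. Of 21 acute phase and innate defense genes 9 rose and 4 fell (median 0.94). Saa2 read 7.21, 4.87 and 6.90 in Lum and 13.19, 13.57 and 12.94 in yOrg (6.91, SE 0.53). Orm1 rose by 4.79, Saa3 by 4.60, with yOrg C low (11.16, 11.72 and 8.64), and Pigr, the carrier of IgA into milk, by 1.82, a call lost without Lum A, Lum B, yOrg B or yOrg C. The lysozyme gene Lyz1 fell by 4.77, with 2 of its 3 probe sets sharing the call. The remaining probe set was at background in both groups (-0.02).

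No cell division gene was called higher. Of 22 cell division genes 5 fell (median -0.75), so 22.7% were called, against 35.9% of all genes. The helicase gene Mcm5 read 9.52, 7.66 and 9.39 in Lum and 7.05, 6.79 and 7.12 in yOrg (-1.87, SE 0.47). Mki67 read 8.82, 6.09 and 8.36 in Lum and 5.39, 4.88 and 8.30 in yOrg and was not called (-1.57, -4.28 to 1.14). Lum B was low in its group and yOrg C high in its own. The count of genes that fell was 7 without Lum B, 2 without Lum A, Lum C or yOrg B and 3 without yOrg A, and Mcm5 was among the calls lost without Lum A, Lum C or yOrg B. Of 15 CDK inhibitor and p53 target genes 7 rose and 4 fell (median 0.23, which turned to -0.03 on a common median). Cdkn2a rose from background (3.73, 3.19 and 4.06) to 6.69, 5.98 and 5.37 (2.35, SE 0.36), Cdkn2c by 2.0 and Cdkn2b by 1.64, whereas Cdkn1a, the p21 gene, fell from 11.35, 11.24 and 10.96 to 9.29, 9.18 and 9.56 (-1.84, SE 0.19). Interferon response genes differed between the organoid arrays: 1 of 15 was called higher and 0 lower (median 0.51), and without yOrg C 3 were called lower. The called share was 6.67%, against 35.9% of all genes. The list's median level was 9.96 in yOrg C against 6.43 and 7.27 in yOrg A and B.

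Among markers of other cell types, immune markers (82.4%) and Schwann and nerve markers (71.4%) were called more often than all genes (35.9%). The share was 38.5% for fibroblast and pericyte, 25% for erythroid, 14.3% for fat cell and 8.33% for endothelial markers. Ptprc, which encodes the leukocyte antigen CD45, read 8.94, 8.49 and 8.17 in Lum and 2.64, 2.86 and 2.99 in yOrg (-5.70, SE 0.19). Of 17 immune markers 14 fell and 0 rose (median -1.19). The list's median level was 7.05, 6.68 and 5.99 in Lum and 3.63 to 3.86 in yOrg, and 13 members were above background in Lum against 4 in yOrg. Ms4a1, the B cell gene for CD20, fell by 4.28 and Cd53 by 4.64. The MHC class II list fell in 7 of 8 genes (median -3.64), with Cd74, the invariant chain, reading 10.17, 9.46 and 9.53 in Lum and 4.67, 4.65 and 4.86 in yOrg (-4.99, SE 0.19). H2-Ab1, the beta chain partner of H2-Aa, stayed above background in yOrg at 5.63, 6.87 and 8.25. The sort was stained for lineage markers, yet Ptprc was well above background in every Lum array. The part of leukocytes in the loss of MHC class II, lysozyme and cytokine genes was not tested.

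Vwf, an endothelial and platelet gene, read 7.25, 7.23 and 7.05 in Lum and 3.08, 3.18 and 3.19 in yOrg (-4.03, SE 0.11), but it was the 1 of 12 endothelial markers that was called (median -0.82), and without Lum A 3 were. Their median level was 6.32 in Lum B against 4.40 and 4.53 in Lum A and C, and the defining marker Cdh5 read 3.35, 6.32 and 3.27. Of 13 fibroblast and pericyte markers 4 fell and 1 rose (median -1.03). Col3a1, a fibrillar collagen, read 7.01, 9.55 and 6.0 in Lum and 2.56, 2.78 and 2.86 in yOrg (-4.79, SE 0.73), again highest in Lum B. Without Lum B 4 fibroblast markers were again called lower, and 6 without Lum A. Fabp4, a fat cell and capillary gene named here for Lum B, read 4.20, 10.92 and 3.70 in Lum and was not called, and Adipoq, which defines fat cells, was at background in all 6 arrays. Of 7 fat cell markers 1 was called lower (median -0.14), and 2 without Lum B. Of 7 Schwann and nerve markers 3 rose and 2 fell (median 0.37), and 1 fell when any 1 of the Lum or yOrg arrays other than Lum C was left out. Cdh19 rose from 2.93, 3.83 and 3.22 to 7.35, 7.66 and 8.55 (4.53, SE 0.35), whereas Mbp, the myelin basic protein gene, fell by 1.62. Pdgfra, a fibroblast marker, rose by 2.10 in 1 of its 3 probe sets. Erythroid markers were near background, and 1 of 4 was called lower (Alas2, -0.69, list median -0.16).

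**Figure D5:**
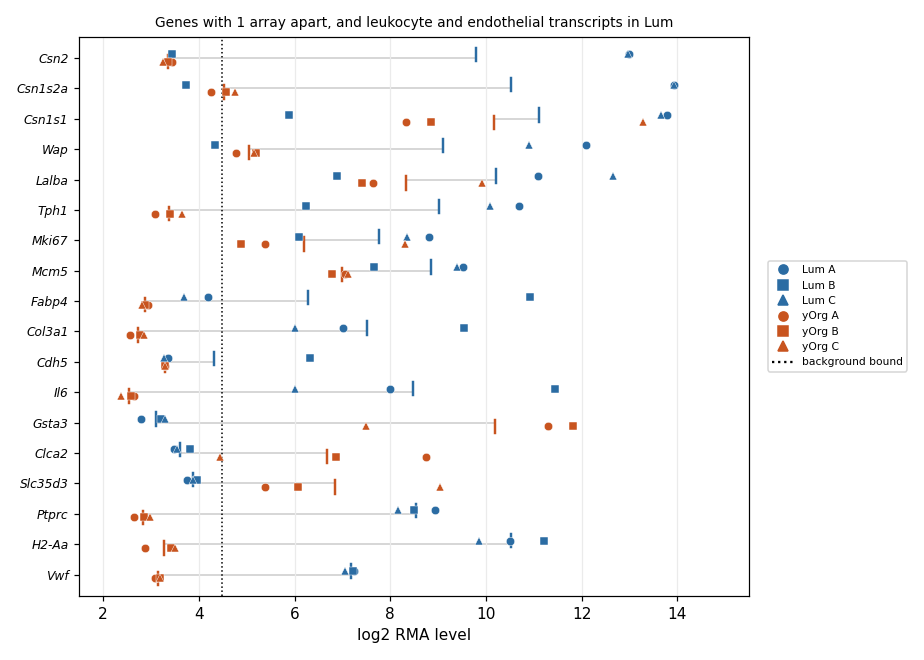
Log2 RMA levels (horizontal axis) of 18 genes in which 1 array stands apart from its group or which mark leukocytes (Ptprc, H2-Aa) and endothelium (Cdh5, Vwf); points are single arrays, short vertical bars are group means and the dotted line is the background bound of 4.49. Lum B lacks Csn2, Csn1s2a and Wap and is highest in Fabp4, Col3a1, Cdh5 and Il6, whereas Ptprc and Vwf are high in all 3 Lum arrays.

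The Org arrays, which share the culture but not the transgene, are given beside the main changes as levels only. Their mean level was 3.66 for Fosb, 3.41 for H2-Aa, 2.83 for Ptprc and 3.99 for Glycam1, where the yOrg means were 3.71, 3.27, 2.83 and 3.83. It was 13.3 for Krt8, 8.96 for Esr1 and 6.23 for Cited1 against yOrg means of 13.3, 8.75 and 6.28. For the gained genes it was 8.83 for Trp63, 9.17 for Oxtr and 11.2 for Foxi1 against 8.80, 8.86 and 11.0. These genes are examples, and other levels were farther apart. The Org mean was 5.79 for Bex1, 6.49 for Atf3 and 8.33 for Ccn1 against yOrg means of 4.27, 7.43 and 9.13. No test of yOrg against Org was made here.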

How the data were processed

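RNA of 9 samples was hybridized to Affymetrix mouse arrays as biotinylated cRNA. The deposited log2 values, 1 per probe set and array, were made by the authors with RMA, which corrects background, normalizes quantiles across arrays and summarizes probes. Its version is not given in the sources used. All 9 value columns belong to samples of the series, with 0 other columns. Of 45101 probe sets, 34958 had 1 gene in the platform annotation, 932 several and 9211 none, and 34754 of the former matched a RefSeq gene. Each of 18194 genes was represented by its brightest probe set, judged by the mean of the 9 arrays (9012 genes had several). The number of arrays, 3 per group, limits the precision. The labels call them biological replicas.

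limma 3.58.1 (R 4.3.3) fitted 3 group means over 9 arrays (lmFit and eBayes, two-sided) and yOrg minus Lum was tested, with Benjamini-Hochberg adjustment over all genes. Intervals are 95% and unadjusted. At an unadjusted p under 0.05, 8087 genes differed. The test was checked on simulated data. No detection calls were used, so the bound of 4.49 stands in for them. At that bound 1 of the 74 receptor genes was called higher and 0 lower. The comparison and the 36 gene lists (641 members, 600 measured) were chosen with earlier results of these data known. No test was run over a list.

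Genes were named by a rule: the 15 largest increases and decreases among calls whose arrays did not overlap, anchor genes of each list, up to 4 members per list with the largest change among calls, the residual and kept luminal genes, the 6 calls with the widest spread in yOrg, and genes the study names. This gave 246 genes, 187 of them called. Of the called ones 103 had more than 1 probe set. In 54 all probe sets shared the call, and in 1 (Yap1) another was called in the opposite direction. Genes outside the rule, such as Fabp4 and the further holders of the TEAD motif, were chosen after their values were seen. Promoters came from RefSeq, and 2661 genes had more than 1.

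Letters A to C recur in the groups. Deviations from the group mean correlated at 0.002, 0.03 and -0.05 between Lum and yOrg arrays of the same letter, so the letters were not used as pairs. Alternatives covered the arrays in the fit, the letter as a block, the probe set, a filter on low values, scaling, the prior and array weights, a minimum fold, the background bound, and each array left out in turn.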

Additional observations from a re-analysis of the deposited data

How the results depend on the processing

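The counts of genes higher (3927) and lower (2604) stayed within 1.5 times under most alternatives. With genes above the median of means only, 1675 were lower, 2 were lost to background and 34 gained, since genes at background are not tested there. On a common median 6930 were lower and 873 lost. Tested against a 2-fold limit, 594 were higher, 407 lower, 117 lost and 130 gained, with 8 residual luminal genes. With the lower quartile of all values, 3.52, as the bound, 208 were lost and 101 gained. Leaving out 1 array at a time gave 3166 to 3897 higher, 1963 to 2661 lower, 289 to 388 lost, 286 to 350 gained and 21 to 26 residual luminal genes.

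Between Lum and yOrg the letters do not pair the arrays. Whether yOrg and Org arrays of the same letter go together was not tested. The median level of the cell division list was 5.505, 5.115 and 6.88 in yOrg and 5.325, 5 and 7.29 in Org, so array C was highest in both. With the letter as a replicate block, 4176 genes were higher and 2761 lower over 9 arrays, 3051 and 1850 over 6 arrays, and 4129 and 2823 as a random block.

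Of 187 called genes named here, 96 kept their call in all of 22 alternatives and 91 lost it in some, 91 under the 2-fold limit. The sign of Yap1 turned with the mean of its probe sets (-0.027). The other changes of sign were in genes that were not called, and the cause was not tested. Leaving out 1 array at a time, the difference ran from -0.18 to 0.057 for Adipoq (positive without Lum B or yOrg B), -0.20 to 0.068 for Axin2 (Lum A), -1.61 to 0.46 for Cel and -3.56 to 0.39 for Csn1s1 (both Lum A or Lum C), -0.10 to 0.052 for Erbb4 and -0.17 to 0.10 for Esrp2 (both yOrg C, and Esrp2 also Lum A), -0.97 to 0.48 for Fn1 (Lum B, yOrg A or yOrg B) and -0.85 to 0.042 for Myb (yOrg B). It ran from -0.032 to 0.078 for Cox4i1 (negative without Lum B or yOrg A) and from -0.04 to 0.92 for Kit (Lum B). Without both organoid arrays C, Erbb4 was again at 0.052 and Esrp2 at 0.025. A common median turned Cd14 (-0.09), Cox4i1 (-0.23) and Mfge8 (-0.15). Quantile normalization turned Adipoq (0.029), cyclic loess Adipoq (0.052) and Erbb4 (0.066), array weights Erbb4 (0.047) and Mfge8 (-0.0023), and the mean of probe sets Esrp2 (0.13) and Fn1 (0.042).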
